A study of Mus musculus with 30 samples.

Results

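The EphA receptors are the 9 genes Epha1, Epha2, Epha3, Epha4, Epha5, Epha6, Epha7, Epha8 and Epha10. They were found by symbol among the probe sets of 2 microarray tables. Probe sets that name a single gene were taken, and of several for a receptor the one with the highest mean signal was used. All 9 were measured in both tables, of 16553 genes measured in both. They stood on 24 probe sets in the embryonic table and on 10 in the newborn table, in which Epha10 had 2.

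The RNA came from Tbr1 -/- (KO) and wild-type (WT) mice of the CD1 strain, bred by crossing Tbr1 heterozygotes, so the null allele was present in every cell from the start. Neocortex was taken from KO and WT embryos at the E14.5 stage (3 arrays each), and frontal, parietal and occipital brain tissue at postnatal day 0.5 from KO and WT pups (4 arrays per genotype and region). The labels do not say whether the arrays of a group came from separate animals or from pools, nor give the sex, so p-values measure the spread between these arrays. All values are log2 probe set signals, on which a difference of 1 is a doubling. Levels were compared between groups for the same probe set and stage, not between genes or stages.

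Eph receptors are receptor tyrosine kinases that are switched on by ephrins on a neighbouring cell. The A class binds mainly the ephrin-A ligands, which are held to the membrane by a lipid anchor, and contact often turns a growing axon away or sorts cells apart. In the developing forebrain, graded EphA receptors and ephrin-A ligands help to order the connections between thalamus and cortex. Tbr1 is a T-box transcription factor of early-born cortical projection neurons, which send axons to the thalamus.

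The receptors on which the newborn results turn are Epha5, Epha6 and Epha7, and the bases just upstream of their start sites are shown because the missing protein is a DNA-binding factor. The sequences are from RefSeq, build GRCm38.p6, cover the 250 bases before 1 annotated transcript start, and run 5′ to 3′ on the strand of the gene. Epha5 is at chr5:84417383-84417632 on the minus strand, Epha6 at chr16:60605532-60605781 on the minus strand, and Epha7 at chr4:28812881-28813130 on the plus strand, before the first of its 2 starts in the RefSeq table. The starts used for Epha5, Epha6 and Epha7 lie inside the annotated genes, which extend further upstream, to positions 84417818, 60610911 and 28813066. Capitals mark the T-box core letters GGTGTG, searched on both strands (CACACC on the other).
Epha5: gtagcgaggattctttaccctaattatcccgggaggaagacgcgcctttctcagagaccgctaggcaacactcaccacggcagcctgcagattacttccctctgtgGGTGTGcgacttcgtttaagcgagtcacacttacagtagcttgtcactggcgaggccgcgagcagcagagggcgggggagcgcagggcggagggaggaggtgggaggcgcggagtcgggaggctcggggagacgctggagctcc
Epha6: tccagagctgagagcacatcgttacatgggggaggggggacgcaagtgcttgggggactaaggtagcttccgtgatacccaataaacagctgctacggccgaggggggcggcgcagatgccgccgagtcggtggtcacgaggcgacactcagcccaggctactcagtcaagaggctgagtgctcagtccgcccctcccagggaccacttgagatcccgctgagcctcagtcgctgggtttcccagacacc
Epha7: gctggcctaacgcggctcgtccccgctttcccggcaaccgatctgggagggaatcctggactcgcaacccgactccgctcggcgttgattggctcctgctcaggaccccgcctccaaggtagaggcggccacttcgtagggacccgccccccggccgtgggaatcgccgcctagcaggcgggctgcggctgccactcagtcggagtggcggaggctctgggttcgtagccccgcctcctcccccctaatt
The core letters occurred upstream of 1 of the 9 receptors, Epha5, at position -144 counted from its start site, and upstream of 18.3% of all genes with such a window. The longer letters AGGTGTGA, which contain the core, occurred in 0 of the 9, against 1.3% of all genes. These letters describe the window and say nothing of whether the factor binds there.

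Tbr1 itself was lower in KO tissue at P0.5, by 0.63 on the log2 scale in frontal, 0.58 in parietal and 0.84 in occipital tissue (limma adjusted p 0.00189, 0.00887 and 0.000293). At E14.5 Tbr1 averaged 7.83 in KO and 9.12 in WT neocortex (limma adjusted p = 0.85). Its signals there were 8.69, 7.23 and 7.57 on KO and 9.36, 8.89 and 9.11 on WT arrays. The 4 analysed markers of cortical glutamatergic neurons (Emx1, Neurod6, Slc17a7 and Neurod2) averaged 9.61 to 9.80 on KO arrays and 9.56 to 9.92 on WT arrays at P0.5, against array medians of 7.42 to 7.52. Of these 4 Neurod6, a transcription factor of cortical projection neurons, was lower in KO frontal (-0.46, limma adjusted p = 0.00626) and occipital tissue (-0.43, limma adjusted p = 0.0284). The Y-linked genes Eif2s3y, Kdm5d and Uty split the P0.5 arrays into 8 with a mean of at most 5.99 and 16 with at least 8.99. All 4 KO frontal arrays were in the low set and all 4 WT frontal arrays in the high set, so in frontal tissue genotype and whatever this level stands for cannot be told apart. In the parietal groups 2 of 4 KO and 3 of 4 WT arrays were in the high set, and in the occipital groups 3 of 4 KO and 4 of 4 WT arrays. On 5 arrays of the high set Xist, which is transcribed from the inactive X chromosome, was also above 7. These were KO parietal replicates 1 and 3 (8.55 and 7.88), KO occipital replicates 2 and 4 (7.75 and 8.77) and WT parietal replicate 3 (8.65). The arrays of high Y-linked level were thus not matched for Xist between KO and WT.

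Loss of Tbr1 went with more receptor RNA for 3 of the 9 genes in all P0.5 regions. Epha6 was 1.94 to 2.81 times as high in KO as in WT tissue, Epha7 was 1.35 to 1.59 times and Epha5 1.26 to 1.34 times as high. The other receptors had no call in parietal or occipital tissue, and in frontal tissue Epha1, Epha2 and Epha10 were lower. In frontal tissue 6 of 9 members passed a limma adjusted p of 0.05, against 7.52% of the 19938 genes tested. Parietal tissue had 3 of 9, against 1.81%, and occipital tissue had 3 of 9, against 1.34%. The members' median difference was -0.07 in frontal, -0.04 in parietal and 0.12 in occipital tissue, where all genes had -0.034, -0.011 and 0.012. In such tissue samples, more cells of a type and more RNA per cell cannot be told apart.

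Epha6, a receptor of developing and adult brain, had the largest difference of the 9 in each region. Its signals on the KO frontal arrays were 9.26, 9.0, 9.07 and 9.12, against 7.90, 8.22, 7.74 and 7.66 on the WT frontal arrays. The KO parietal arrays had 9.52, 9.82, 9.57 and 9.71, against 8.26, 8.25, 7.98 and 8.17 in WT. In occipital tissue the KO arrays had 10.07, 9.81, 9.82 and 9.61, against 9.02, 8.94, 8.42 and 9.10 in WT. Within each region every KO array was above every WT array. The share of all genes whose arrays separate like this was not counted at either stage, so separation is only described, here and below. The difference was 1.24 (SE 0.128, limma adjusted p = 4.57e-07) in frontal, 1.49 (SE 0.128, adjusted p = 1.12e-07) in parietal and 0.96 (SE 0.128, adjusted p = 0.000111) in occipital tissue. It passed in each region once the Y-linked level was a covariate, where it was 1.1, 1.45 and 0.92. Among arrays with a high Y-linked level the Epha6 difference was 1.41 in parietal tissue (2 KO and 3 WT arrays, limma adjusted p = 0.000878). It was 0.96 in occipital tissue (3 KO and 4 WT arrays, limma adjusted p = 0.00622). These arrays, used for Epha7 and Epha5 below too, were not matched for Xist between KO and WT, as given above.

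**Figure D1:**
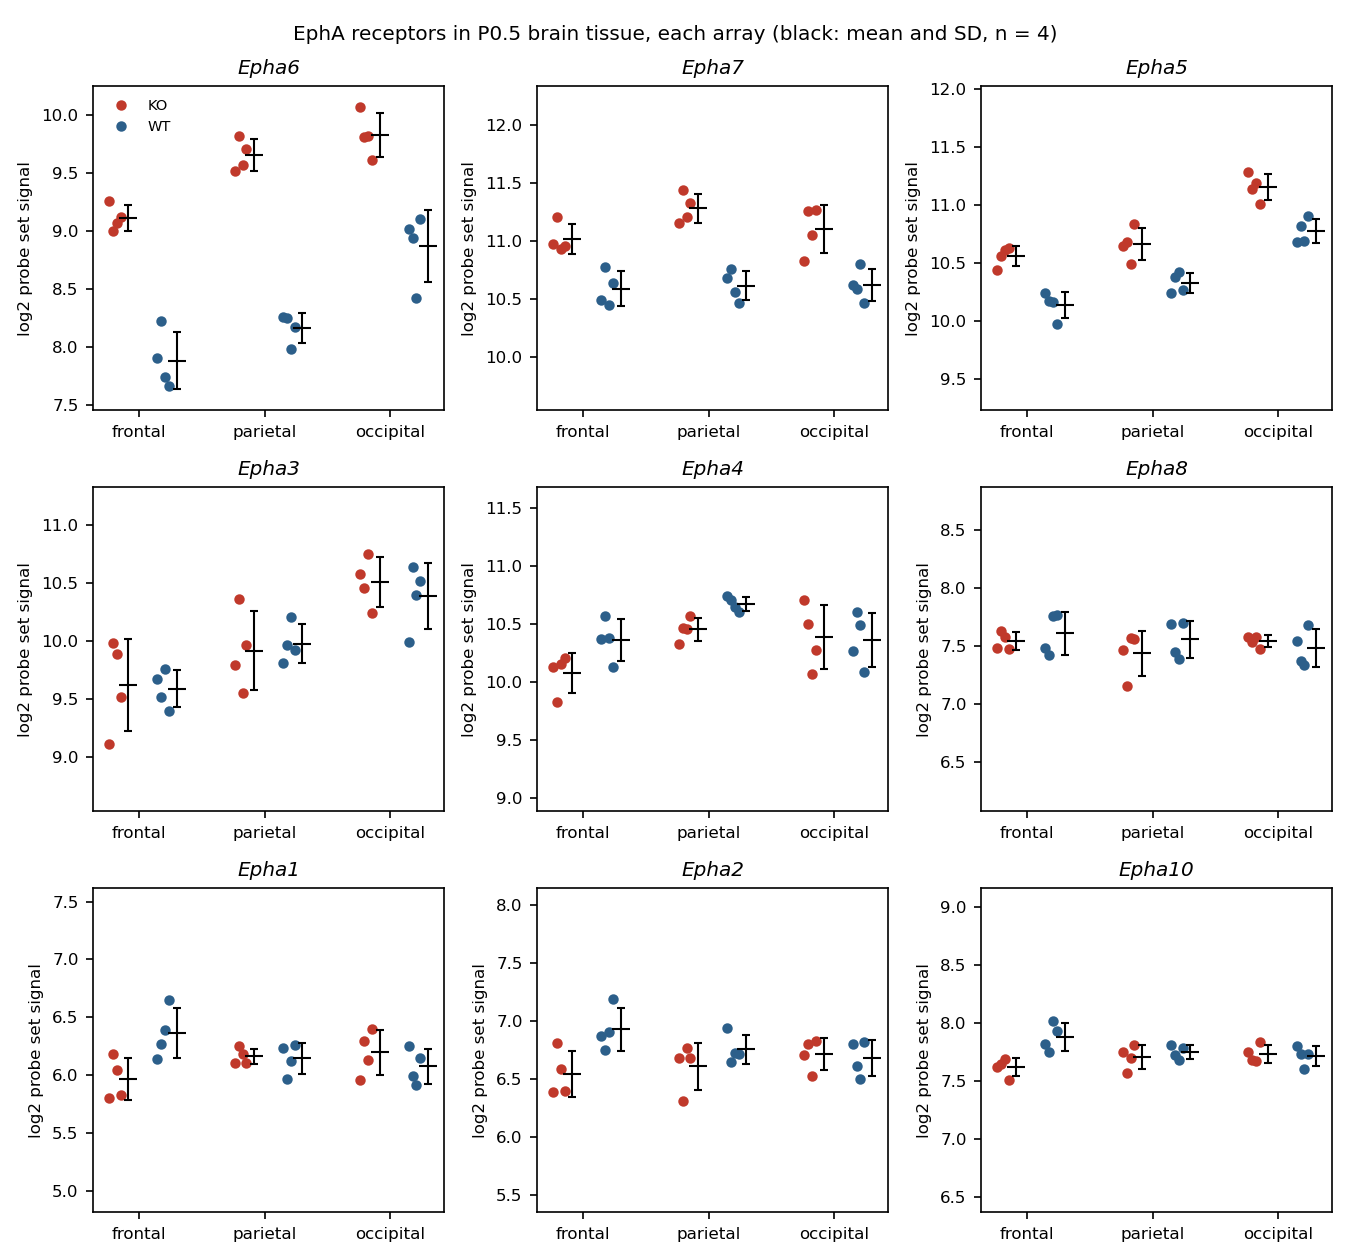
Log2 probe set signal of each EphA receptor on each P0.5 array, by region, with KO in red left of WT in blue and the mean ± SD of 4 arrays in black. Epha6, Epha7 and Epha5 show KO arrays above the WT arrays of the same region, while the panels of Epha3, Epha4 and Epha8 overlap in most regions.

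Epha7, which in mice guides the axons from cortex to thalamus, was the second receptor with higher signals in all KO regions. Its KO arrays had 10.98, 11.21, 10.93 and 10.96 in frontal tissue, against 10.49, 10.78, 10.45 and 10.64 on the WT arrays. In parietal tissue the KO arrays had 11.16, 11.44, 11.21 and 11.33 and the WT arrays 10.68, 10.76, 10.56 and 10.47. In occipital tissue the KO arrays had 10.83, 11.26, 11.05 and 11.27 and the WT arrays 10.62, 10.59, 10.80 and 10.47. The groups did not overlap in any region, but in occipital tissue the lowest KO and the highest WT array were only 10.83 and 10.80. By limma the difference was 0.43 (SE 0.0973, adjusted p = 0.00606), 0.67 (SE 0.0973, adjusted p = 0.000131) and 0.48 (SE 0.0973, adjusted p = 0.00789) in frontal, parietal and occipital tissue. Once the Y-linked level was a covariate it was 0.30 in frontal tissue (limma adjusted p = 0.41) and still passed in parietal (0.63) and occipital (0.45) tissue. Among arrays of high Y-linked level alone it was 0.62 in parietal (limma adjusted p = 0.0422) and 0.50 in occipital tissue (limma adjusted p = 0.0449).

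Epha5, a receptor for ephrin-A5 known from the topographic maps of retina and forebrain, rose by less. In frontal tissue its KO arrays had 10.44, 10.56, 10.61 and 10.63, against 10.24, 10.17, 10.16 and 9.97 in WT. Parietal KO arrays had 10.64, 10.68, 10.49 and 10.83 and WT arrays 10.24, 10.38, 10.42 and 10.26. Occipital KO arrays had 11.28, 11.14, 11.19 and 11.01 and WT arrays 10.68, 10.82, 10.69 and 10.90. No KO array overlapped the WT arrays of its region. The difference was 0.42 in frontal (SE 0.0769, limma adjusted p = 0.000729), 0.33 in parietal (adjusted p = 0.0174) and 0.38 in occipital tissue (adjusted p = 0.00763). The parietal call was lost without KO replicate 4 (0.27, limma adjusted p = 0.109), without WT replicate 1 (0.30, adjusted p = 0.0709) and without WT replicate 4 (0.31, adjusted p = 0.0733). Once the Y-linked level was a covariate Epha5 had 0.32 in frontal tissue (limma adjusted p = 0.166). Among arrays of high Y-linked level it had 0.25 in parietal (limma adjusted p = 0.691) and 0.37 in occipital tissue (limma adjusted p = 0.0621).

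**Figure D2:**
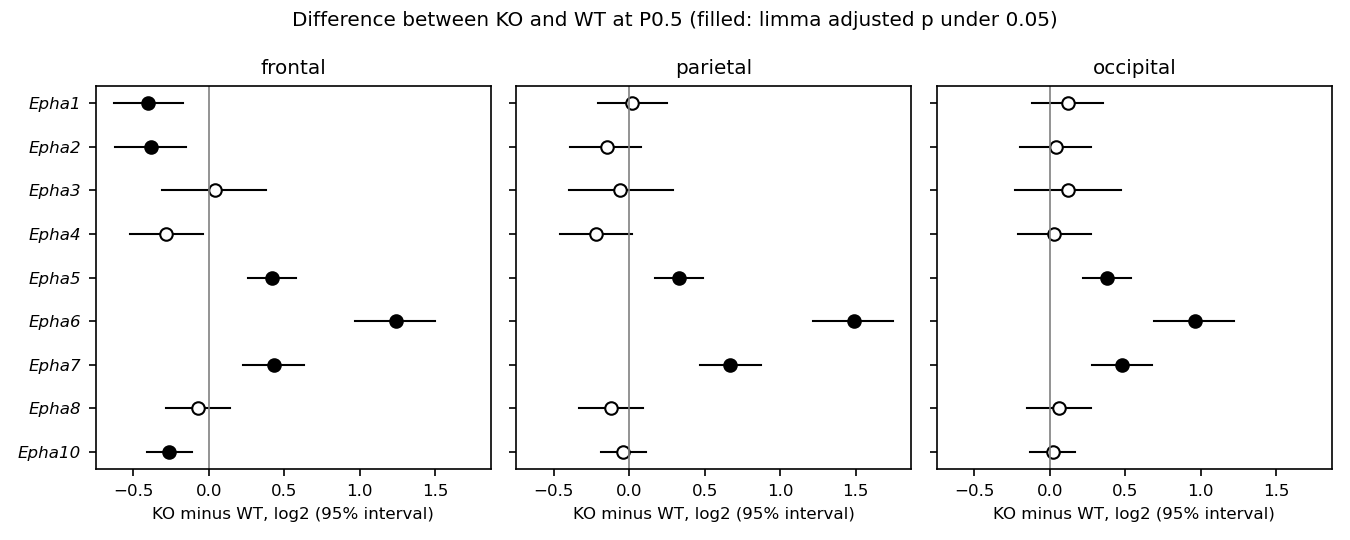
KO minus WT difference in log2 signal for each EphA receptor in frontal, parietal and occipital tissue at P0.5, with 95% intervals from limma (filled points: adjusted p under 0.05). Epha6 lies farthest to the right in each region at 1.24, 1.49 and 0.96, and Epha5 and Epha7 are right of 0 in each.

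Epha1 and Epha2, receptors studied mostly in epithelia, and Epha10, whose kinase domain is thought to lack activity, had lower signals in KO frontal tissue. Epha1 had 5.80, 6.18, 6.05 and 5.83 on KO and 6.14, 6.27, 6.39 and 6.65 on WT arrays (-0.40, SE 0.113, limma adjusted p = 0.0299). Epha2 had 6.39, 6.81, 6.59 and 6.40 on KO and 6.87, 6.75, 6.91 and 7.19 on WT arrays (-0.38, SE 0.115, limma adjusted p = 0.0416). Epha10 had 7.62, 7.65, 7.69 and 7.51 on KO and 7.82, 7.75, 8.02 and 7.93 on WT arrays (-0.26, SE 0.0732, limma adjusted p = 0.0275). The KO and WT arrays overlapped for Epha1 and Epha2 and did not for Epha10. Both Epha1 and Epha2 were among the dimmest 30% of genes by mean signal. The second probe set of Epha10 differed by -0.17 (limma adjusted p = 0.175).

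These 3 calls were lost under several settings. Without KO frontal replicate 1, KO replicate 4, WT replicate 3 or WT replicate 4, none of the 3 passed, with limma adjusted p from 0.0716 to 0.192. Without KO replicate 3 Epha2 alone was lost (limma adjusted p = 0.0674). None passed where only the frontal arrays were fitted. With the Y-linked level, which cannot be told apart from genotype here, as a covariate Epha1 had -0.34, Epha2 -0.19 and Epha10 -0.23 (limma adjusted p 0.44, 0.745 and 0.429). In parietal and occipital tissue their differences lay between -0.15 and 0.12, with no call.

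Epha3, Epha4 and Epha8 had no KO call in any P0.5 region. Epha3, a guidance receptor of forebrain axons, differed by 0.04, -0.06 and 0.12 in frontal, parietal and occipital tissue, with a 95% interval in frontal tissue of -0.31 to 0.38 and -0.25 there once the Y-linked level was a covariate. Epha4, which binds both ephrin classes and keeps corticospinal axons on their side of the cord in mice, had 10.13, 9.83, 10.16 and 10.21 on KO frontal arrays and 10.37, 10.57, 10.38 and 10.13 on WT frontal arrays (-0.28, limma adjusted p = 0.128). Its parietal arrays did not overlap, with 10.33 to 10.57 in KO and 10.61 to 10.74 in WT (-0.22, limma adjusted p = 0.623). In occipital tissue Epha4 differed by 0.03. Epha8, a receptor known from the axons of the midbrain in mice, differed by -0.07, -0.12 and 0.06.

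Markers of other cell types were measured beside these differences, and their part in them was not tested. Of 6 astrocyte markers, 5 were higher in KO frontal tissue (Aldoc by 1.08 and Aldh1l1 by 0.81 the most), 0 in parietal and 1 in occipital tissue by limma. At an unadjusted p under 0.05 these were 6 of 6 in frontal, 2 of 6 in parietal and 6 of 6 in occipital tissue, with median differences of 0.76, 0.26 and 0.61. Of all genes 27.5%, 9.32% and 10.8% had such a p in these regions, and 7.52%, 1.81% and 1.34% were called. The mean of the astrocyte list per array was 8.48 to 9.56 in KO and 8.29 to 8.86 in WT frontal tissue, 9.16 to 9.43 and 8.81 to 9.0 in KO and WT parietal tissue, and 9.58 to 9.73 and 8.92 to 9.12 in KO and WT occipital tissue. Of 6 microglial markers C1qa (0.47) and C1qb (0.71) were higher in KO frontal tissue, with list means of 7.80 to 8.17 in KO and 7.25 to 7.93 in WT. Of 6 endothelial markers Kdr was lower in KO frontal tissue (-0.89), with list means of 7.72 to 8.46 in KO and 8.07 to 9.22 in WT. At an unadjusted p under 0.05 the endothelial list had 5, 0 and 0 of 6 in frontal, parietal and occipital tissue. Its median differences were -0.45, -0.24 and -0.3. Of 6 analysed striatal markers Drd1 was lower in KO in all regions (-1.08 frontal, -1.04 parietal, -0.61 occipital) and Ppp1r1b in frontal (-0.77) and parietal (-0.44) tissue, while Penk was higher in frontal tissue (0.57). Prkcd was higher in frontal tissue (0.48) as 1 of 6 thalamic markers, and the interneuron (8), meningeal (6) and choroid plexus (6) lists had 0 limma calls in the P0.5 regions between KO and WT. At an unadjusted p under 0.05 the interneuron list had 1, 1 and 3 genes in frontal, parietal and occipital tissue, the meningeal list 0, 1 and 0, and the choroid plexus list 0, 0 and 2. The striatal list had 4, 3 and 3, the microglial list 4, 1 and 2, and the thalamic list 2, 0 and 1. The shares of all genes in each region are those given above.

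**Figure D3:**
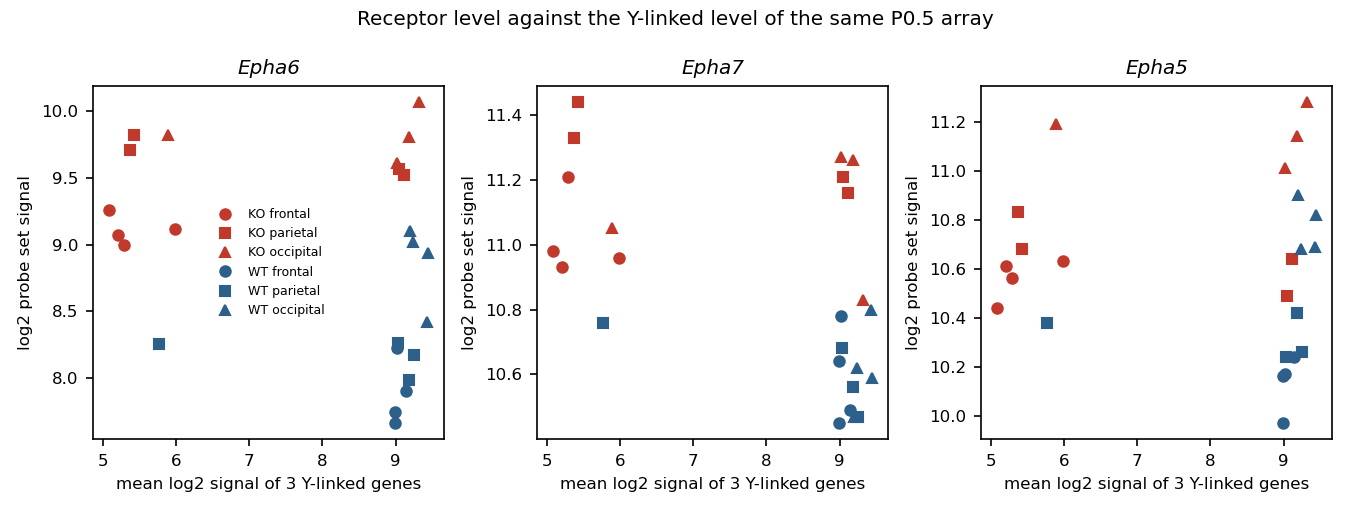
Log2 signal of Epha6, Epha7 and Epha5 against the mean log2 signal of 3 Y-linked genes on the same P0.5 array, with KO in red, WT in blue and the region given by the marker shape. The frontal arrays (circles) split by genotype along the x axis, with KO at 5.09 to 5.99 and WT at 8.99 to 9.15, while parietal and occipital KO arrays lie on both sides.

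The second comparison set the regions against each other within a genotype. In both genotypes 3 of the 9 receptors, Epha3, Epha5 and Epha6, were lower in frontal than in occipital tissue, a rise from front to back of the brain. In KO the 3 of 9 stood against 3.22% of all genes called, and in WT against 6.03%. The members' median was -0.23 in KO and 0.00 in WT, where all genes had -0.022 and 0.025. Epha7 showed no such grade, with a frontal minus occipital difference of -0.08 in KO (95% interval -0.28 to 0.12) and -0.03 in WT (-0.23 to 0.17).

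Epha3 had 9.11, 9.98, 9.89 and 9.52 on KO frontal arrays, against 10.58, 10.46, 10.75 and 10.24 on KO occipital arrays (-0.89, SE 0.168, limma adjusted p = 0.00214). In WT it had 9.67, 9.52, 9.76 and 9.40 in frontal and 9.99, 10.64, 10.40 and 10.52 in occipital tissue (-0.80, SE 0.168, limma adjusted p = 0.00548). No frontal array reached the lowest occipital array of its genotype. For Epha5, whose signals by region are given above, the difference was -0.60 in KO (SE 0.0769, limma adjusted p = 2.73e-05) and -0.64 in WT (SE 0.0769, limma adjusted p = 8.11e-06). For Epha6 it was -0.71 in KO (SE 0.128, limma adjusted p = 0.00121) and -0.99 in WT (SE 0.128, limma adjusted p = 2.01e-05). These receptors passed in both genotypes with each array left out in turn. KO frontal and occipital arrays also differed in their Y-linked level, with means of 5.39 and 8.35, and with it as a covariate the KO differences were -1.12, -0.68 and -0.82 for Epha3, Epha5 and Epha6, all past the threshold. The mean of the 6 astrocyte markers was 8.48 to 9.56 on KO frontal and 9.58 to 9.73 on KO occipital arrays, and 8.29 to 8.86 on WT frontal and 8.92 to 9.12 on WT occipital arrays.

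Markers of other cell types differed between frontal and occipital tissue too, and their part in the grades was not tested. Of the 4 cortical glutamatergic markers Neurod6 (0.55 in KO, 0.58 in WT) and Neurod2 (0.24 in KO, 0.31 in WT) were higher in frontal tissue in both genotypes by limma, as was the interneuron marker Npy (1.91 in KO, 1.33 in WT). Of the 6 astrocyte markers Slc1a2 (-0.44) and Slc1a3 (-0.74) were lower in KO frontal tissue, and Aldoc (-1.13) in WT frontal tissue. The striatal marker Isl1 was lower in KO frontal tissue (-0.76). In WT frontal tissue the striatal markers Drd1 (0.39) and Ppp1r1b (1.03) were higher, and the microglial Aif1 (-0.39) and the choroid plexus marker Ttr (-3.17) were lower. The other markers had no call. Of all genes 3.22% were called in KO and 6.03% in WT.

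Between parietal and occipital tissue 1 of 9 members passed in KO, against 0.351% of all genes, and 2 of 9 in WT, against 0.451%. Epha5 was lower in parietal tissue in both, by -0.50 in KO (limma adjusted p = 0.00521) and -0.45 in WT (limma adjusted p = 0.00367). Epha6 was lower in WT parietal tissue (-0.70, limma adjusted p = 0.00622) and differed by -0.17 in KO (limma adjusted p = 0.872). Epha3 differed by -0.59 in KO (limma adjusted p = 0.172) and -0.41 in WT (limma adjusted p = 0.496).

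Between frontal and parietal tissue 0 of 9 members passed in limma in KO, against 0.236% of all genes called. At an unadjusted p under 0.05 there were 3 of 9, against 8.11% of all genes. In WT 0 of 9 passed, against 0.171% of all genes called. At an unadjusted p under 0.05 there were 4 of 9, against 12.9% of all genes. Epha6 had the largest KO difference here, -0.54 (SE 0.128, limma adjusted p = 0.0781), with 9.0 to 9.26 in frontal and 9.52 to 9.82 in parietal KO tissue. It passed where arrays were weighted (-0.50, limma adjusted p = 0.0115) and where only the arrays compared were fitted (-0.54, limma adjusted p = 0.0211). Epha4 differed by -0.37 in KO (limma adjusted p = 0.254) and -0.31 in WT (limma adjusted p = 0.313), and in neither genotype did the frontal arrays overlap the parietal ones.

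**Figure D4:**
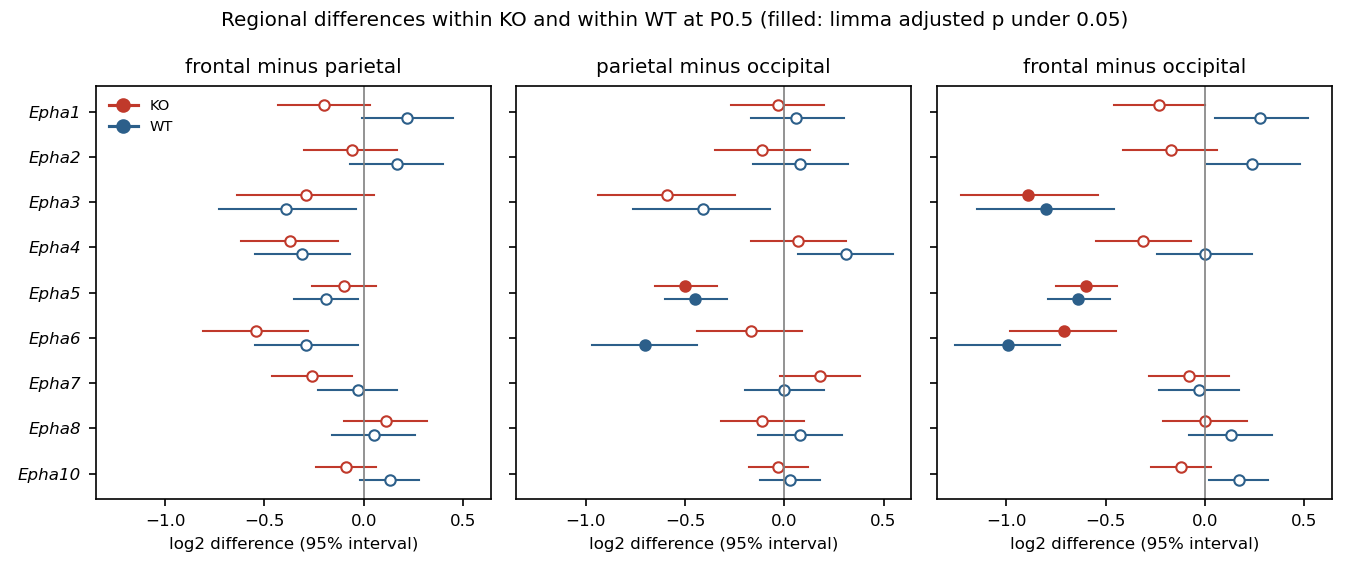
Differences in log2 signal between regions within KO (red) and within WT (blue) at P0.5 for each EphA receptor, with 95% intervals from limma (filled points: adjusted p under 0.05). In the frontal minus occipital panel Epha3, Epha5 and Epha6 lie left of 0 in both genotypes, and Epha7 lies at 0.

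Whether Tbr1 loss changed the regional differences was tested as the KO minus WT difference of each regional difference. For frontal minus occipital, 0 of 9 members passed in limma, against 0.416% of all genes called. At an unadjusted p under 0.05 there were 3 of 9, against 20.1% of all genes. For frontal minus parietal 0 of 9 passed, against 0.01% called, with 2 of 9 at an unadjusted p under 0.05, against 8.13%. For parietal minus occipital 0 of 9 passed, against 0.01% called, with 1 of 9 at an unadjusted p under 0.05, against 3.93%. The intervals bound how much the frontal minus occipital grade could have differed between KO and WT. They ran from -0.57 to 0.41 for Epha3 (estimate -0.08), from -0.18 to 0.26 for Epha5 (0.04) and from -0.09 to 0.65 for Epha6 (0.28). For Epha1, which had -0.51 here, the limma adjusted p was 0.131, and 0.0466 with weighted arrays. The parietal minus occipital step of Epha6 differed by 0.53 (95% interval 0.16 to 0.91, limma unadjusted p = 0.00698, adjusted p = 1). A missed threshold does not show that the grades were alike in KO and WT.

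In falling order of mean, Epha6 had KO occipital (9.83 ± 0.19, SD, n = 4), KO parietal (9.66 ± 0.14), KO frontal (9.11 ± 0.11), WT occipital (8.87 ± 0.31), WT parietal (8.17 ± 0.13) and WT frontal tissue (7.88 ± 0.25). Neighbours in this order overlapped, apart from KO parietal and KO frontal, and WT occipital and WT parietal. Even the lowest KO region, frontal with 9.0 to 9.26, thus reached the signals of WT occipital tissue, with 8.42 to 9.10. Epha5 had KO occipital (11.16 ± 0.11), WT occipital (10.77 ± 0.10), KO parietal (10.66 ± 0.14), KO frontal (10.56 ± 0.09), WT parietal (10.33 ± 0.09) and WT frontal tissue (10.14 ± 0.11). For Epha5, KO parietal tissue overlapped its neighbours KO frontal and WT occipital tissue, and the other neighbours did not overlap. Epha7 averaged 11.28 (parietal), 11.10 (occipital) and 11.02 (frontal) in KO, and 10.59 to 10.62 in the 3 WT regions. Epha3 averaged 9.62 and 9.59 in KO and WT frontal, 9.92 and 9.98 in KO and WT parietal, and 10.51 and 10.39 in KO and WT occipital tissue.

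In E14.5 neocortex the receptors with the largest differences were lower in KO, and none passed. Of the 9 members 0 were called by limma, with 3 at an unadjusted p under 0.05, and 0 of 18194 genes were called (0%), with 1048 at an unadjusted p under 0.05. The members' median difference was 0.00, where all genes had 0.056. Epha5 had 4.30, 6.40 and 6.34 on KO arrays, against 8.59, 8.25 and 7.35 on WT arrays (-2.38, SE 0.591, limma adjusted p = 0.85). Epha3 had 5.07, 6.72 and 6.80 on KO arrays, against 8.72, 8.13 and 7.61 on WT arrays (-1.96, SE 0.496, limma adjusted p = 0.85). Epha4 had 7.19, 8.0 and 8.10 on KO arrays, against 8.55, 8.43 and 8.30 on WT arrays (-0.66, SE 0.267, limma adjusted p = 0.858). For these 3 every KO array was below every WT array, and KO replicate 1 was the lowest. That array also had the highest Tbr1 signal of the KO arrays, 8.69. Without that array the differences were -1.69, -1.39 and -0.38 for Epha5, Epha3 and Epha4. Xist had 9.58, 10.17 and 5.07 on KO and 5.01, 10.76 and 5.41 on WT arrays, so the groups were not matched for it. Its part was not tested.

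The 2 receptors with the largest newborn differences overlapped between KO and WT at E14.5. Epha6 had 4.04, 3.57 and 3.91 on KO and 3.52, 3.83 and 3.88 on WT arrays, among the dimmest 30% of genes. Epha7 had 5.86, 5.81 and 5.74 on KO and 5.76, 5.82 and 5.84 on WT arrays. The remaining Epha1, Epha2, Epha8 and Epha10 differed by 0.09, 0.30, 0.09 and -0.06. For Epha2 every KO array was above every WT array, with 6.40 to 6.75 against 6.17 to 6.28, and the others overlapped. Marker lists differed between these arrays too, and their part was not tested. The meningeal and fibroblast markers averaged 8.37, 8.80 and 7.33 on KO and 6.82, 6.76 and 7.04 on WT arrays, and the cortical glutamatergic markers 8.49, 7.73 and 8.07 on KO and 8.93, 8.41 and 8.44 on WT arrays. The thalamic markers averaged 6.40, 6.58 and 7.82 on KO and 6.08, 6.36 and 6.18 on WT arrays, and the microglial markers 6.85, 6.57 and 6.34 on KO and 6.32, 6.04 and 6.26 on WT arrays. For the meningeal, thalamic and microglial lists every KO array was above every WT array, and the glutamatergic list overlapped. The choroid plexus markers overlapped, with 6.91, 6.67 and 7.45 on KO and 5.61, 6.41 and 6.89 on WT arrays. By limma 0 genes of these lists were called, with 3 of 6 meningeal, 1 of 4 glutamatergic, 2 of 6 thalamic, 1 of 6 microglial and 1 of 6 choroid plexus markers at an unadjusted p under 0.05. Of all genes 5.76% had such a p.

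All 24 probe sets of the receptors were checked at E14.5, with 0 called by limma and 9 at an unadjusted p under 0.05. The share of all probe sets with such a p was not counted, and among genes it was 5.76%. The 9 belonged to Epha1, Epha3, Epha4, Epha5 and Epha7, so some were of the same gene and are not independent. That of Epha1 was higher in KO (0.43). Of the 24 probe sets 14 had a negative and 9 a positive difference, and 1 was at 0. The 4 probe sets of Epha5 had -2.38, -1.14, -0.83 and -0.15, all negative. The 4 of Epha3 had -1.96, -1.56, -0.27 and 0.14, and the 5 of Epha4 had -0.66, -0.79, -0.33, -1.14 and 0.05. For Epha7 the probe sets disagreed, with 0.00 for the brightest and -0.68, 0.22 and 0.10 for the others.

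**Figure D5:**
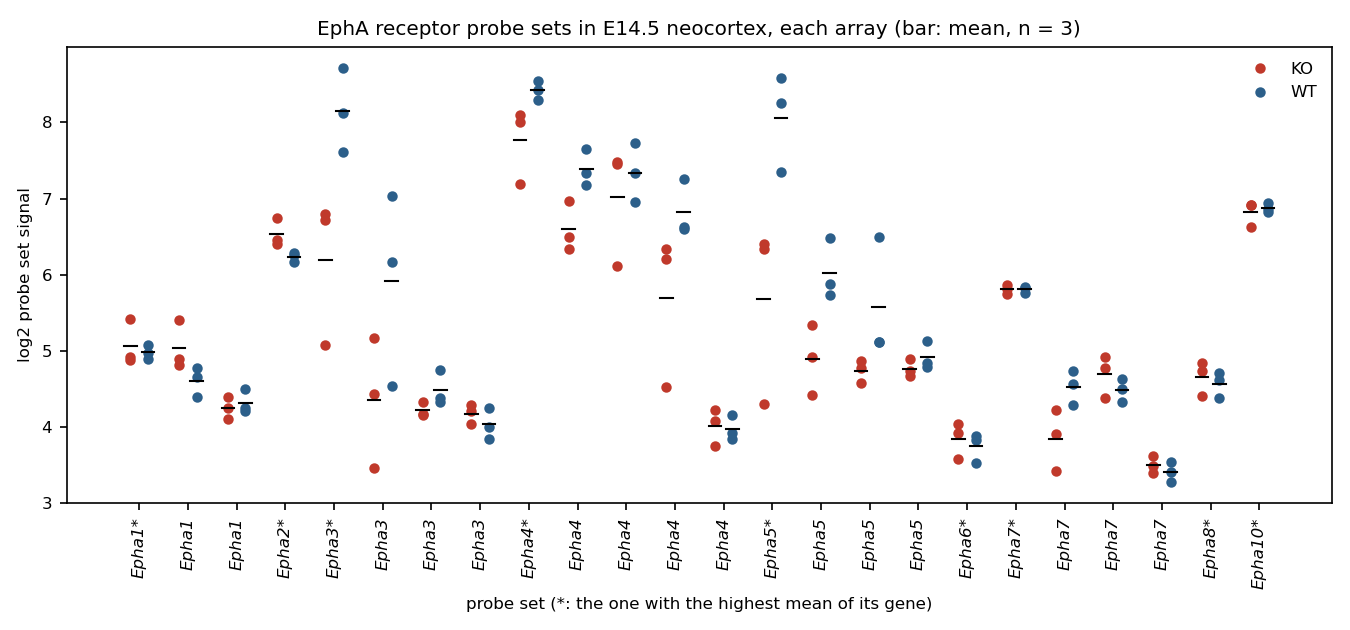
Log2 signal of each of the 24 EphA receptor probe sets on each E14.5 array, with KO in red left of WT in blue and the mean of 3 arrays as a bar. The starred probe sets of Epha3, Epha4 and Epha5 show all KO arrays below all WT arrays, and that of Epha2 shows all above. Those of Epha1, Epha6, Epha7, Epha8 and Epha10 overlap.

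The ligands were compared in the same fits. Of the 5 ephrin-A genes 0 were called between KO and WT by limma in any P0.5 region, with 2, 0 and 0 at an unadjusted p under 0.05 in frontal, parietal and occipital tissue. Of all genes 7.52%, 1.81% and 1.34% were called there, and 27.5%, 9.32% and 10.8% had such an unadjusted p. With 5 genes, 0 calls is near these shares. The median difference of the ephrin-A genes was 0.00, -0.02 and 0.01, where all genes had -0.034, -0.011 and 0.012. At E14.5 0 of 5 were called, with 1 at an unadjusted p under 0.05, against 0% and 5.76% of all genes. Efna5 (ephrin-A5), named here after its values were seen, was higher in frontal than in occipital tissue by 1.05 in KO (limma adjusted p = 9.86e-05) and by 0.41 in WT (limma adjusted p = 0.0977). The KO minus WT test of that grade gave 0.65 (limma adjusted p = 0.152). Efna2 (ephrin-A2), also named after its values were seen, was higher in frontal than in occipital tissue by 0.23 in WT (limma adjusted p = 0.0437) and by 0.15 in KO (limma adjusted p = 0.27). These were 1 of 5 ephrin-A genes called in KO, against 3.22% of all genes, and 1 of 5 in WT, against 6.03%. Of the 3 ephrin-B genes 0 were called between KO and WT, with 1 at an unadjusted p under 0.05 in each P0.5 region. The shares of all genes there are those given above for the ephrin-A genes. Between frontal and occipital tissue 1 of the 3 was higher and 1 lower in KO frontal tissue by limma, against 3.22% of all genes called. In WT frontal tissue 1 of the 3 was lower, against 6.03%.

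The EphB receptors and signalling partners had calls in frontal and parietal tissue. Of 4 EphB receptors analysed Ephb1, which helps to set the path of retinal and callosal axons in mice, was lower in KO frontal (-0.60, SE 0.110, limma adjusted p = 0.000873) and parietal tissue (-0.52, SE 0.110, limma adjusted p = 0.00858). In occipital tissue it differed by -0.26 (limma adjusted p = 0.376). This was 1 of 4 in frontal tissue, against 7.52% of all genes, and 1 of 4 in parietal tissue, against 1.81%. Of 19 genes that act with Eph receptors, 2 were higher and 1 lower in KO frontal tissue, against 7.52% of all genes called, and 0 were called in parietal and occipital tissue by limma. At an unadjusted p under 0.05 they were 7, 3 and 0 of 19 in frontal, parietal and occipital tissue, against 27.5%, 9.32% and 10.8% of all genes. Chn1 (0.40, limma adjusted p = 0.00271), which encodes a chimaerin that acts below EphA4, and Vav3 (0.64, limma adjusted p = 0.0315) were higher. Nck2, which encodes an adaptor, was lower (-0.24, limma adjusted p = 0.0189). The Y-linked level differed between the frontal groups, as above. Between frontal and occipital tissue 1 of 4 EphB receptors was lower in KO frontal tissue and another was higher in WT frontal tissue by limma. Each of these receptors had the same sign in KO and WT. Of the 19 partners 2 were higher in frontal tissue in each genotype, not the same 2 genes in both. All genes had 3.22% called in KO and 6.03% in WT.

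Genes with the pattern most like each called receptor were found by Pearson's r over the 24 P0.5 arrays, which share genotype and region, so r describes these arrays. For Epha6 they were Nefl (r = 0.948), a neurofilament subunit of large axons, Flrt3 (0.945), an adhesion and guidance protein, and Ryr3 (0.941), a calcium release channel. Nefl was higher in KO frontal tissue by 1.54, Flrt3 by 0.99 and Ryr3 by 0.52. For Epha7 they were Etv1 (0.905), a transcription factor of deep-layer cortical neurons, Slc4a10 (0.860), a bicarbonate transporter, and Zfp521 (0.860), a zinc finger protein, which differed by 0.59, 1.12 and 1.1 in frontal tissue. For Epha5 they were Acvr2a (0.933), an activin receptor, Vat1l (0.910) and Oxr1 (0.909). The closest gene was Olfr437 (0.908) for Epha1, Arhgef5 (0.926) for Epha2 and Atp2a1 (0.853) for Epha10.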

How the data were processed

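RNA of 30 samples was measured on Affymetrix arrays, whose number limits the precision. The deposited log2 signals per probe set, made with Affymetrix Expression Console 1.1 and RMA per the submitters' processing notes, were used without further normalization. The labels name a single array type, yet E14.5 probe sets carry names of another, so the stages were fitted apart. Probe sets naming 1 gene (34958 of 45101 at E14.5, 21789 of 35557 at P0.5) were kept, and the one with the highest mean stood for its gene (18194 and 19938 genes).

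The tests were two-sided, by limma 3.58.1 (lmFit and eBayes with an intensity trend, R 4.3.3), the 6 E14.5 arrays in 1 fit and the 24 P0.5 arrays in another with 6 groups. Calls needed an adjusted p under 0.05 (Benjamini-Hochberg over all genes tested), and intervals are 95% intervals from the fit. The fits were tested on simulated data. The members, gene lists, comparisons and alternatives were chosen with earlier results of these data known. Named genes are the 9 receptors, up to 4 genes of each pathway list called between KO and WT at P0.5, and the 3 genes with the highest Pearson r for each called receptor. Efna2, Efna5 and the marker genes were named after their values were seen. Same-numbered arrays deviated together in all pairs for E14.5 (r 0.125 to 0.445) and for WT parietal and occipital tissue (r 0.124 to 0.276). For WT frontal and occipital tissue r was also positive in all pairs (0.0581 to 0.393). Each of the other comparisons had a pair with a negative r. Promoter sequences came from RefSeq and matched all 9 receptors by symbol.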

Additional observations from a re-analysis of the deposited data

How the results depend on the processing

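Each difference was recomputed under other settings: probe sets of a gene averaged, the dimmest 30% left out, array medians subtracted, no intensity trend, array weights, the replicate number as a fixed or random block, a fit of the compared arrays alone, the Y-linked level as a covariate, 2 arrays left out that stand apart (WT frontal replicate 4 and KO parietal replicate 2), each array left out, and, chosen after seeing the data, arrays of high Y-linked level alone. Of the single receptors' values 2232 kept their side of the threshold, 31 lost and 6 gained a call. For reported differences with a call, 0 of 382 values turned sign. For those without one 68 of 1887 turned, with 0 called, from reported differences of at most 0.12 in size. The 6 frontal KO calls became 3 in the fit of the compared arrays, 1 with the Y-linked covariate, 3 without the 2 arrays and 3 to 6 with each array left out, and with the replicate block 5 (Epha2 was lost, adjusted p = 0.0505). Array weights gave 2 members for KO frontal against parietal (0 in the reported fit), 2 for KO parietal against occipital (1) and 1 for the KO minus WT frontal to occipital difference (0). The replicate block gave 1 for KO frontal against parietal, as did the fit of the compared arrays. At E14.5 the block changed no call, with adjusted p of 0.569, 0.644 and 0.569 for Epha3, Epha4 and Epha5. Over the 10 comparisons of 2 groups, 13 of 39 arrays had their best correlation with the array of their number, and 3 of 3 at E14.5. Calls over all genes varied more, with each array left out included: 247 (Y-linked covariate) to 2606 (array weights) for frontal KO against WT (1499), 79 to 1241 for parietal (361), 98 to 664 for occipital (267), 247 to 1549 for KO frontal against occipital (643), 7 to 730 for KO frontal against parietal (47), 28 to 191 for KO parietal against occipital (70), 287 to 1917 for WT frontal against occipital (1202), 24 to 134 for WT frontal against parietal (34), 46 to 452 for WT parietal against occipital (90), and 12 to 530 for the frontal to occipital difference of differences (83). At E14.5, leaving out 1 array gave 0 to 30 genes. With the dimmest 30% left out, Epha1 and Epha2 at P0.5 and Epha6 and Epha8 at E14.5 could not be tested, and dim signals limit what can be seen of them. The cause of these shifts was not tested.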
